A study of Mus musculus with 15 samples.

Results

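The golgins and Golgi tethers described here were 10 coiled-coil proteins of the Golgi apparatus: *Golgb1*, *Golga1*, *Golga2*, *Golga3*, *Golga4*, *Golga5*, *Gcc1*, *Gcc2*, *Trip11* and *Uso1*. Each mapped to 1 transcript of the deposited count table through GENCODE M21, and all 10 were among the 10085 transcripts tested, of 21727 in the table. The group was chosen by gene family around *Golgb1*, which had been picked because its ribosome-protected fragments (RPFs) differed between the pull-downs of the 2 tagged lines. Ratios of pull-down to total RPFs, and their difference between the lines, are therefore given as description with no p-value.

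The RPFs came from mouse embryonic stem cells (mESCs) of the E14Tg2a.4 line, an established cell line grown with leukemia inhibitory factor. In 3 *Rps27-FLAG* clones (eS27-FLAG in the labels) and 3 *Rps27l-FLAG* clones (eS27L-FLAG in the labels), a 3xFLAG tag had been placed homozygously at the end of the endogenous *Rps27* or *Rps27l* gene by CRISPR editing, and 3 WT clones carried no tag. Rps27 and Rps27l are paralogous proteins of the small ribosomal subunit. Every tagged clone had been derived from a single cell, and every culture was treated with cycloheximide, which arrests elongating ribosomes. Libraries were made of the RPFs of the whole ribosome pellet in all 9 clones (total RPFs) and, in the 6 tagged clones, also of the ribosomes that anti-FLAG beads pulled down (IP RPFs), which gave 15 libraries in 5 groups of 3. Libraries with the same replicate number were sequenced as 1 batch, and each tagged replicate gave an IP library and a total library from the same clone. No IP library of untagged WT cells was used here.

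Golgins are long rod-like coiled coils that are anchored at one end to Golgi membranes, where they capture arriving transport vesicles and help to hold the stacked cisternae together. Different golgins sit at different places: at the entry (*cis*) face, at the rims of the cisternae, and at the exit (*trans*) face, where a C-terminal GRIP domain binds the small GTPase Arl1. In a coiled coil, leucine and other hydrophobic residues form the seam between helices, and glutamate, lysine and glutamine are common on the outer faces.

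The coding sequences (CDSs) showed this make-up, which goes with the choice of the members as coiled-coil proteins and is given as description. Glutamate, lysine, glutamine and leucine codons together made up between 36.4% (*Golga5*) and 49.2% (*Golga4*) of the codons of a member, against a median of 27.7% over the tested transcripts. The share in *Golga4* was higher than in 99.9% of the tested transcripts, that in *Golgb1* (48.3%) higher than in 99.8%, and those of *Golga5* and *Uso1* (37.3%) higher than in 94.4% and 95.8%. Glutamate codons alone ranged from 9.38% in *Uso1* to 16.0% in *Gcc2*, with a median of 6.99% over the tested transcripts. Proline, which breaks helices, took 1.07% to 4.09% of the codons of a member and a median of 5.43% over the tested transcripts. The plot of codon make-up sets each member against all tested transcripts.

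**Figure D1:**
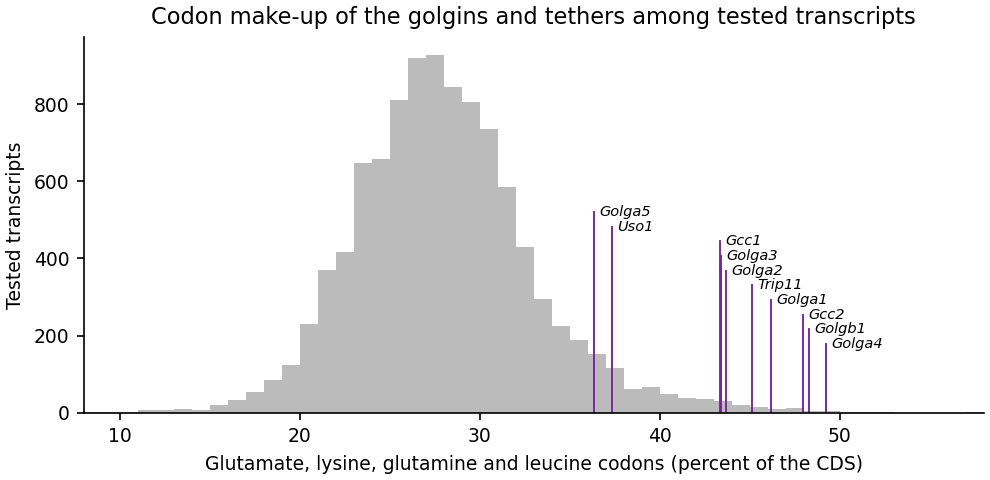
Histogram of tested transcripts by the share of glutamate, lysine, glutamine and leucine codons in the CDS (x axis, percent; y axis, number of transcripts), with a line for each member whose height has no meaning. All 10 members lie above the median of 27.7%, with *Golga5* (36.4%) and *Uso1* (37.3%) nearest to it and *Golga4* (49.2%) farthest.

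To show what a ribosome reads on these mRNAs, the 20 codons of the CDS with the most glutamate, lysine, glutamine and leucine codons are printed for 5 members on which the results below turn: the 4 longest, and *Golga5*, which had the highest IP/total ratio in *Rps27-FLAG*. They were read 5′ to 3′ from the sense strand of the GENCODE M21 transcripts (GRCm38), with glutamate codons (GAA and GAG) in capitals. The stretches are codons 1184 to 1203 of *Golgb1*, 543 to 562 of *Golga4*, 1393 to 1412 of *Trip11*, 1113 to 1132 of *Gcc2* and 464 to 483 of *Golga5*.
Golgb1: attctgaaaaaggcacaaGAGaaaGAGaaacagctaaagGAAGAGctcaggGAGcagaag
Golga4: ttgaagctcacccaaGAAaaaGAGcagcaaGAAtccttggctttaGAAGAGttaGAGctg
Trip11: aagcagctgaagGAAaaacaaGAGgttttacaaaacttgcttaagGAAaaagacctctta
Gcc2: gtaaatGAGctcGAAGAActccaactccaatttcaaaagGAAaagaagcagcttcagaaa
Golga5: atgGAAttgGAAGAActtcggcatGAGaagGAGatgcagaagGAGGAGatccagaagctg

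Of these 20 codons, 17 in *Golgb1*, *Golga4*, *Trip11* and *Gcc2* and 15 in *Golga5* were for the 4 amino acids. The stretches differ in how densely glutamate codons are set, from 3 of 20 in *Trip11* to 7 of 20 in *Golga5*.

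*Golgb1* encodes giantin, a very long golgin inserted into the rims of cisternae by a C-terminal membrane anchor. Its gene lies at chr16:36886134-36933085 on the plus strand of GRCm38, and its CDS spans 21 exons and 9717 nt including the stop codon, longer than 99.3% of the tested CDSs. *Golga5* encodes another golgin with a membrane anchor, at chr12:102469135-102497905 on the plus strand, with a CDS of 2190 nt, the shortest of the group. Among the GRIP domain golgins, *Golga4* (chr9:118506267-118582519, plus strand) has a CDS of 6717 nt and *Gcc2* (chr10:58255497-58305599, plus strand) one of 5043 nt. The CDSs of *Gcc1* (chr6:28417829-28428390, minus strand) and *Golga1* (chr2:39016155-39065541, minus strand), which encode the other two GRIP domain golgins, have 2337 and 2277 nt. At the *cis* side, *Trip11* (chr12:101834043-101913267, minus strand, 5931 nt) encodes a golgin that binds highly curved membranes, *Golga2* (chr2:32288313-32307912, plus strand, 3081 nt) encodes the matrix protein GM130, and *Uso1* (chr5:92137938-92202795, plus strand, 2880 nt) encodes the vesicle tether p115, which binds GM130. *Golga3* (chr5:110176701-110226470, plus strand, 4344 nt) encodes a golgin with a role in positioning of the Golgi. Of the 28-nt windows of each CDS, only *Golga2* shared any with another listed transcript (57 of 3054, with *Gm13547*), so reads of *Golga2* from those windows could not be assigned uniquely.

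Library totals were 3972152 to 6673935 counts for IP RPFs and 6313827 to 8064166 for total RPFs. A member had between 27 (*Golga1*) and 1877 (*Uso1*) counts in a library, and *Golgb1* had 421 to 1473, so ratios of *Golga1* and *Gcc1* (55 to 98 counts) are the least precise. All 8 mESC markers checked (*Pou5f1*, *Nanog* and *Sox2* among them) exceeded 2 CPM (counts scaled to a common library size) in every library, and their summed level was 3480 to 4400 CPM. Of 5 primitive endoderm and 5 fibroblast markers 0 exceeded 2 CPM in every library, with summed levels of 3.57 to 24.5 and 2.77 to 9.92 CPM. Of 5 neural markers, *Tubb3*, *Map2* and *Nes* did so, and the sum was 131 to 176 CPM.

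Total RPFs were compared first, because they show how much each mRNA was being translated before any pull-down. Levels between genes were compared as normalized CPM per kb of counted CDS, where normalized CPM are CPM computed on a library size scaled by its TMM factor. An RPF level combines the amount of the mRNA with the ribosomes on each copy, which cannot be told apart here, nor in bulk cultures can fewer expressing cells be told from less RNA per cell. In WT mESCs *Uso1* stood alone at the top with 80.0 ± 7.63 normalized CPM per kb (SD, n = 3), at the 76.6th percentile of the tested transcripts, whose median was 25.5. It was followed by *Golga4* (19.9 ± 1.68), *Golga5* (19.4 ± 0.985) and *Golgb1* (19.3 ± 1.29), which overlapped with each other. *Gcc2* (13.96 ± 1.098), *Golga3* (13.3 ± 1.00) and *Golga2* (13.1 ± 0.354) overlapped as well, and all 3 lay below *Golgb1*. *Trip11* (11.2 ± 1.195) was lower on average, but its range overlapped with that of *Golga3*. *Gcc1* (5.88 ± 0.335) and *Golga1* (3.57 ± 0.310) came last, each without overlap with its neighbour in the order. The 22.4-fold range therefore rested on *Uso1* at one end and these 2 GRIP domain golgins at the other.

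**Figure D2:**
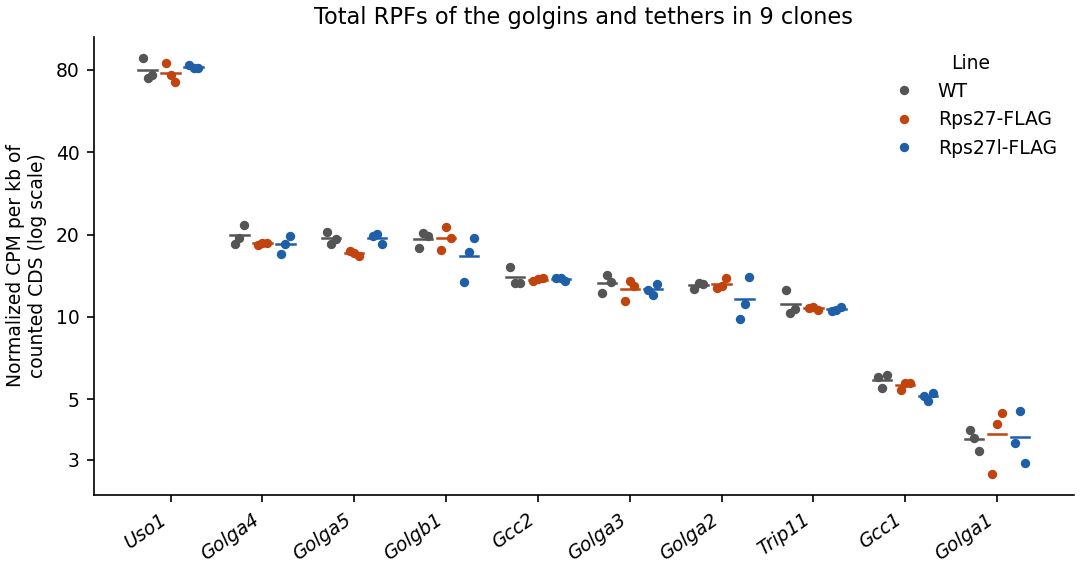
Total RPFs of each member in the 9 clones, as normalized CPM per kb of counted CDS on a log scale (points, clones; bars, means of 3; grey, WT; red, *Rps27-FLAG*; blue, *Rps27l-FLAG*). *Uso1* lies near 80 in all lines, *Golga1* below 5, and the clones of the 3 lines overlap for most members. *Golga5* is lower in all 3 *Rps27-FLAG* clones than in all 3 *Rps27l-FLAG* clones, and *Gcc1* is the reverse. These orders were not counted over all tested transcripts.

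Whether tagging changed the translation of these mRNAs was asked by comparing total RPFs between the lines with edgeR's quasi-likelihood test and Benjamini-Hochberg adjustment over all 10085 transcripts. No member was called at an adjusted p of 0.05 in any of the 3 pairs, against a background of 0% of the tested transcripts in each. At an unadjusted p under 0.05, there were 294 tested transcripts for *Rps27-FLAG* against WT, 574 for *Rps27l-FLAG* against WT and 580 for *Rps27l-FLAG* against *Rps27-FLAG*, of which 0, 0 and 1 were members. With the replicate number as a block, 0.00992%, 1.43% and 1.36% of the tested transcripts were called in the 3 comparisons, and still 0 members. DESeq2 called 0 transcripts in all 3.

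*Golga5* was the member with an unadjusted p under 0.05. Its total RPFs were 37.0, 36.5 and 35.5 normalized CPM in the *Rps27-FLAG* clones, 42.0, 42.7 and 39.4 in the *Rps27l-FLAG* clones, and 43.4, 39.2 and 41.1 in the WT clones. All 3 *Rps27-FLAG* clones were below all clones of both other lines, an order not counted over all tested transcripts. The log2 fold change between the tagged lines was 0.19 (standard error 0.0833), with an unadjusted p of 0.0489 and an adjusted p of 0.803 from edgeR, so the difference does not pass the correction over all transcripts. Among the other members apart from *Golgb1*, the adjusted p was at least 0.806 between the tagged lines, and over all 9 it was at least 0.828 for *Rps27l-FLAG* and 0.999 for *Rps27-FLAG* against WT (edgeR).

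The total RPFs of *Golgb1* in the tagged lines also enter the ratio for which it was picked, so they are described without a p-value. They were 169, 205 and 187 normalized CPM in *Rps27-FLAG*, 130, 166 and 188 in *Rps27l-FLAG* and 172, 196 and 190 in WT (replicates 1, 2 and 3). Replicate 1 was the lowest in each line, and the *Rps27l-FLAG* clones of replicates 1 and 2 were below all clones of the other lines. The log2 fold change of *Rps27l-FLAG* was -0.22 (standard error 0.124) against *Rps27-FLAG* and -0.21 (standard error 0.124) against WT, and that of *Rps27-FLAG* against WT was 0.01 (standard error 0.124). Without replicate 1 of *Rps27l-FLAG* the first 2 values were -0.08 and -0.07, and without its replicate 3 they were -0.34 and -0.33. Without replicate 2 of *Rps27-FLAG* the first was -0.145.

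As a group, the 10 members took 838 ± 13.5 normalized CPM of the total RPFs in WT, 813 ± 17.8 in *Rps27-FLAG* and 796 ± 41.0 in *Rps27l-FLAG* (SD, n = 3 each), ranges that overlapped. In the IP RPFs their sum was 637 ± 7.00 in *Rps27-FLAG* and 687 ± 33.6 in *Rps27l-FLAG*, and every IP library was below every total library. *Golgb1* contributed 23.0 ± 1.79% of the sum in the total RPFs of *Rps27-FLAG* and 14.5 ± 1.62% in its IP RPFs, against 20.2 ± 2.67% and 15.7 ± 2.91% in *Rps27l-FLAG*. Without *Golgb1* the sum was still lower in IP (541 to 551 and 570 to 587 normalized CPM) than in total RPFs (615 to 634 and 623 to 647).

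Pull-down and total RPFs were then compared within each tagged line, to ask how Rps27-ribosomes and Rps27l-ribosomes were represented on each mRNA. In *Rps27-FLAG*, *Golgb1*, *Golga4* and *Trip11* were called lower in IP RPFs, and no member was called higher. In *Rps27l-FLAG*, *Golga4* alone was called lower. Over all tested transcripts, 5.34% were called lower and 0.327% higher in *Rps27-FLAG*, and 2.27% lower and 0.833% higher in *Rps27l-FLAG*. Because the choice of members used these contrasts, the counts are a description. The median log2 fold change of the members was -0.24 in *Rps27-FLAG* and -0.08 in *Rps27l-FLAG*, against -0.01 and -0.03 over all tested transcripts.

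With the clone as a block, which pairs the libraries that came from the same clone, 5 members were called in *Rps27-FLAG* (*Golgb1*, *Golga4*, *Trip11* and *Gcc2* lower, *Golga5* higher) and 3 in *Rps27l-FLAG* (*Golgb1*, *Golga4* and *Trip11*, all lower). The background rose as well, to 22.9% lower and 18.3% higher in *Rps27-FLAG* and 19.0% lower in *Rps27l-FLAG*. The number of calls without the block changed with the clones included. Without replicate 2 or without replicate 3 of *Rps27-FLAG*, edgeR called 0 of the 10085 transcripts (946 and 1112 at an unadjusted p under 0.05), and without replicate 1 it called 1817, with 4 members. Without replicate 1 or 2 of *Rps27l-FLAG* the count was again 0, with 1112 and 793 transcripts under an unadjusted p of 0.05, and without replicate 3 it was 319, *Golga4* among them. The log2 fold changes hardly moved. Without replicate 2 or 3 of *Rps27-FLAG* that of *Golgb1* was -1.02 and -1.06, that of *Golga4* -0.69 and -0.74 and that of *Trip11* -0.58 and -0.59, and that of *Golga4* in *Rps27l-FLAG* was -0.55, -0.53 and -0.50 without replicate 1, 2 and 3.

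Among the golgins with a membrane anchor, the log2 IP/total of *Golgb1* was -1.09, -1.03 and -0.95 in the 3 *Rps27-FLAG* clones and -0.66, -0.58 and -0.51 in the 3 *Rps27l-FLAG* clones. All 6 clones were thus well below 0, and the lines did not overlap. Its IP RPFs stood at 49.3% of its total RPFs in *Rps27-FLAG* (log2 fold change -1.02, standard error 0.108) and at 66.7% in *Rps27l-FLAG* (-0.58, standard error 0.184). In *Rps27-FLAG* this was the 21st lowest value of all tested transcripts and in *Rps27l-FLAG* the 172nd lowest. *Golga5* went the other way in *Rps27-FLAG*, with 0.20, 0.17 and 0.25, and was at -0.12, 0.00 and -0.11 in *Rps27l-FLAG*. Its IP RPFs in *Rps27-FLAG* were 42.5, 41.2 and 42.4 normalized CPM, within the range of its WT total RPFs, although IP and total RPFs were scaled separately. Its total RPFs in that line were 35.5 to 37.0 normalized CPM. The part of either fraction in the ratio above 0 was not tested.

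Among the GRIP domain golgins, *Golga4* had a log2 IP/total of -0.74, -0.74 and -0.63 in *Rps27-FLAG* and -0.47, -0.52 and -0.58 in *Rps27l-FLAG*. The lines did not overlap, but the gap between their closest clones was smaller than the range within either line. *Gcc2* was at -0.49, -0.22 and -0.27 in *Rps27-FLAG* and at -0.15, 0.01 and -0.02 in *Rps27l-FLAG*, so it was low in one line and near 0 in 2 of 3 clones of the other. The 2 low-count members varied most. *Gcc1* ranged from -0.45 to 0.07 in *Rps27-FLAG* and from 0.12 to 0.73 in *Rps27l-FLAG*, where its highest clone had 78 counts in the IP library. *Golga1* ranged from -0.41 to -0.06 and from -0.50 to 0.10, and its lines overlapped.

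Among the *cis* golgins and tethers, *Trip11* was at -0.52, -0.66 and -0.63 in *Rps27-FLAG* and at -0.32, -0.33 and -0.25 in *Rps27l-FLAG*. The lines did not overlap, and the log2 fold changes were -0.60 (standard error 0.0765) and -0.30 (standard error 0.0791). *Golga2* had -0.23, -0.23 and -0.04 in *Rps27-FLAG* and 0.28, 0.21 and -0.22 in *Rps27l-FLAG*, where replicate 3 stood apart from the other 2 clones and inside the range of the first line. *Uso1*, the most highly translated member, stayed within 0.05 of 0 in all 6 clones. *Golga3*, between -0.16 and 0.05 over the 6 clones, also lay near 0.

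**Figure D3:**
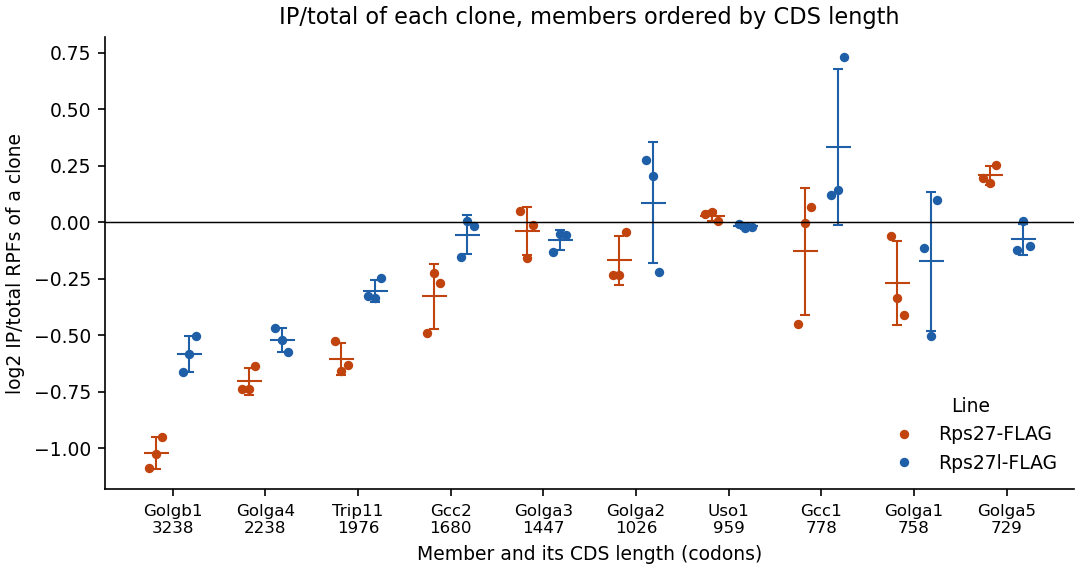
log2 IP/total RPFs of each clone (points) with the mean and SD of 3 clones for *Rps27-FLAG* (red) and *Rps27l-FLAG* (blue), for the members in order of CDS length. The 3 longest, *Golgb1*, *Golga4* and *Trip11*, lie below 0 in all 6 clones and are lower in *Rps27-FLAG*, while *Uso1* and *Golga3* lie near 0.

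The pull-down also reordered the family by level. In the total RPFs of *Rps27-FLAG*, *Golgb1* stood 2nd per kb of CDS (19.4 ± 1.86 normalized CPM per kb, SD, n = 3), with a range that overlapped with that of *Golga4* (18.6 ± 0.196). In the IP RPFs it stood 7th (9.57 ± 1.16), below *Golga5* (19.7 ± 0.342) and *Golga3* (12.3 ± 0.533). In *Rps27l-FLAG* it moved from 4th in total RPFs (16.7 ± 3.02) to 7th in IP RPFs (11.2 ± 2.60), where its range overlapped with those of its neighbours *Golga3* and *Trip11*. *Uso1* was 1st and *Golga1* last in all 5 groups.

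**Figure D4:**
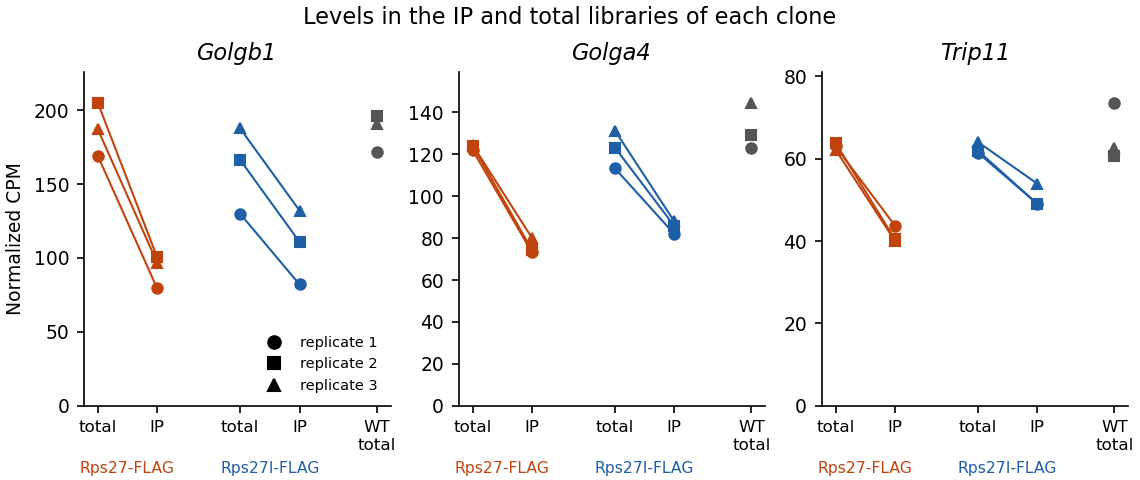
Normalized CPM (y axis, from 0) of *Golgb1*, *Golga4* and *Trip11* in the total and IP libraries of each tagged clone, joined by a line, and in the total libraries of WT (symbols, replicates). For all 3 genes each line falls from total to IP, and for *Golgb1* the *Rps27l-FLAG* clones range from 130 to 188 in total and from 82.1 to 132 in IP.

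CDS length moved with these ratios. Over all tested transcripts, the rank correlation of CDS length with the log2 IP/total ratio was -0.562 in *Rps27-FLAG* and -0.527 in *Rps27l-FLAG* (Spearman's rho across 10082 transcripts, which share the libraries and are not independent). Over the 10 members it was -0.818 and -0.612, and without *Golgb1* -0.750 and -0.467, given as a description over 10 and 9 genes. Within the group, the share of glutamate codons was related to the ratio with a rho of -0.879 for *Rps27-FLAG* and -0.491 for *Rps27l-FLAG*, while it rose with CDS length itself (rho 0.624). GC content (rho 0.200 and 0.309) and the WT level per kb (0.103 and -0.164) were less closely related to the ratios.

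With the clone as a block and a loess trend on CDS length removed from each library, the trend at the length of *Golgb1* was -0.48 in *Rps27-FLAG* and -0.37 in *Rps27l-FLAG*, and what remained was -0.55 and -0.21, both called. *Golga4* also kept a negative call in both lines (-0.32 and -0.21). *Trip11* kept it in *Rps27-FLAG* (-0.24) and was at -0.02 in *Rps27l-FLAG*. Members called higher with the trend removed were *Golga3* (0.24), *Golga5* (0.32) and *Uso1* (0.22) in *Rps27-FLAG*, and *Golga2* (0.27), *Gcc1* (0.45), *Gcc2* (0.20) and *Uso1* (0.14) in *Rps27l-FLAG*. Of these, *Golga3* in *Rps27-FLAG* and *Gcc2* and *Uso1* in *Rps27l-FLAG* had been slightly below 0 (-0.04, -0.06 and -0.02), and the others were above 0 with the trend as well. Over all tested transcripts this fit called 13.0% lower and 18.4% higher in *Rps27-FLAG*, and 8.05% lower and 14.7% higher in *Rps27l-FLAG*. The median over the members was then -0.01 in *Rps27-FLAG* and 0.09 in *Rps27l-FLAG*.

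**Figure D5:**
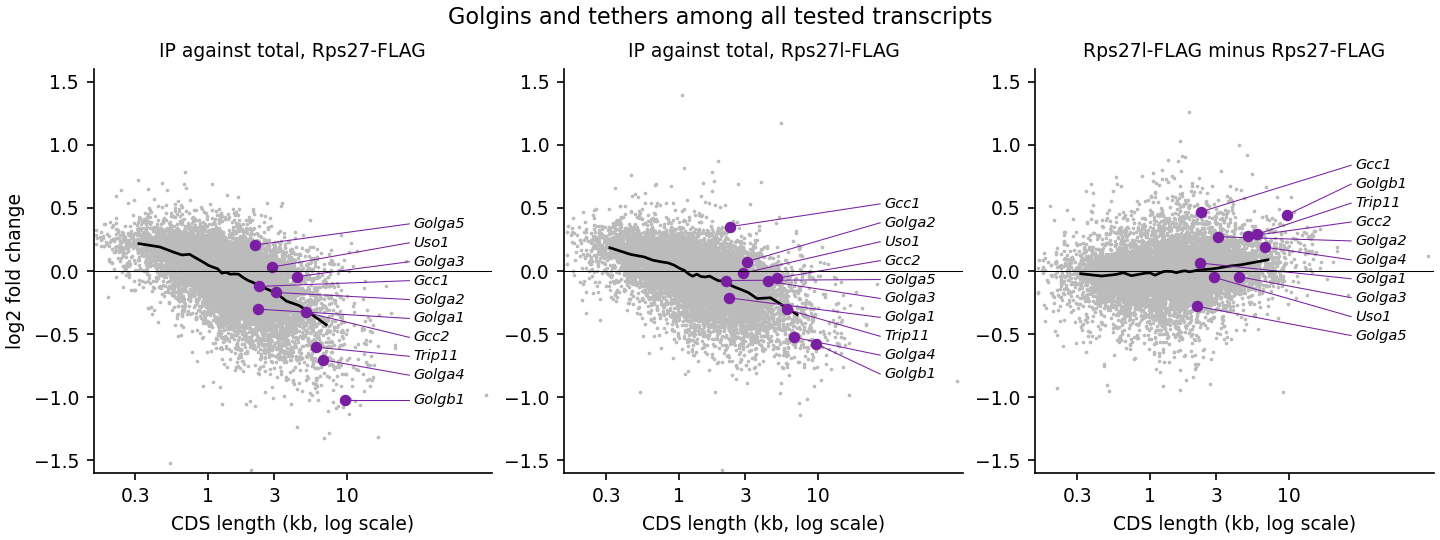
log2 fold change (y axis) against CDS length (x axis, kb, log scale) of the tested transcripts (grey points; black line, medians of bins with equal numbers of transcripts), with the members in purple, for IP against total in *Rps27-FLAG* and *Rps27l-FLAG* and for the difference of the IP effect between the lines. In the first panel *Golgb1* (-1.02), *Golga4* (-0.70) and *Trip11* (-0.60) lie below the line of medians and *Golga3*, *Golga5* and *Uso1* above it, and in the last panel 7 of the 10 members lie above 0.

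The IP effects of the lines were compared in 1 fit of the 12 libraries of tagged clones with a term for each clone, where a call also needed an absolute log2 fold change over 0.25. *Golgb1* was called, with a log2 difference of 0.45 (*Rps27l-FLAG* minus *Rps27-FLAG*, standard error 0.0619), and was the only member called. Over all tested transcripts 0.476% were called higher in *Rps27l-FLAG* and 0.0992% higher in *Rps27-FLAG*. As *Golgb1* was picked on this contrast, no support is drawn from its call. The within-batch differences of its log2 ratio, from the same libraries, were 0.43, 0.44 and 0.44 in the 3 batches. The choice of *Golgb1* favoured such likeness, so it is also only a description.

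Neither fraction alone separated the lines for *Golgb1*. Its IP RPFs were 79.6, 101 and 96.9 normalized CPM in *Rps27-FLAG* and 82.1, 111 and 132 in *Rps27l-FLAG*, and the lines overlapped in IP as they did in total RPFs. The mean log2 difference between the lines was 0.21 in IP and -0.23 in total RPFs, so that about as much of the difference in ratio came from lower total RPFs in *Rps27l-FLAG* as from higher IP RPFs. The split changed from batch to batch. In replicate 1 the lines differed by 0.05 in IP and -0.38 in total RPFs, in replicate 2 by 0.14 and -0.30, and in replicate 3 by 0.45 and 0.00.

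Over the whole group, the log2 difference was above 0 for 7 members and below 0 for 3, with a median of 0.23 against 0.00 over all tested transcripts. The 3 *Rps27l-FLAG* clones lay above the 3 *Rps27-FLAG* clones for 5 members, *Golgb1*, *Golga4*, *Trip11*, *Gcc1* and *Gcc2*, as they did for 9.08% of the tested transcripts. They lay below for *Golga5* and *Uso1*, an order not counted over all tested transcripts, and overlapped for *Golga1*, *Golga2* and *Golga3*. The difference of *Gcc1* was 0.47, with a standard error of 0.196, and it was 0.27 without replicate 3 of *Rps27l-FLAG*, 0.31 without replicate 1 of *Rps27-FLAG* and up to 0.59 with another clone left out. *Trip11* (0.29, standard error 0.0923), *Gcc2* (0.28, standard error 0.0852) and *Golga2* (0.27, standard error 0.115) followed *Golgb1*. At the other end was *Golga5* (-0.28, standard error 0.106). *Gcc2* was called as well when each batch was given an IP effect of its own, and without replicate 2 of *Rps27-FLAG*.

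For *Trip11*, *Gcc2* and *Golga4* the difference lay in the IP RPFs. The IP RPFs of *Trip11* were 40.1 to 43.8 normalized CPM in *Rps27-FLAG* and 49.0 to 53.9 in *Rps27l-FLAG*, and its total RPFs 62.2 to 63.8 and 61.4 to 64.0. *Gcc2* stood at 47.8 to 58.4 and 62.1 to 69.1 in IP and at 67.2 to 69.1 and 67.3 to 69.1 in total RPFs, and *Golga4* at 73.2 to 80.1 and 81.9 to 87.9 in IP. For these 3 members the IP libraries of the lines did not overlap, while the total libraries did, a pattern not counted over all tested transcripts. *Golgb1* did not share this pattern.

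*Golgb1* was called in the fit across both lines under every alternative that gave it an adjusted p and kept the clone term, with log2 differences of 0.35 to 0.48. The lowest of these came with the CDS length trend removed. DESeq2 gave *Golgb1* no adjusted p. Because *Golgb1* was picked on this contrast in the same libraries, calls under alternatives are a description and add no support. Without the clone term 0 transcripts were called. Compared with total RPFs, 1714 transcripts (17.0%) had all 3 IP libraries of *Rps27-FLAG* below all 3 total libraries, and 4 members did so (*Golgb1*, *Golga4*, *Trip11* and *Gcc2*). In *Rps27l-FLAG* it was 14.2% of the transcripts and 2 members, *Golga4* and *Trip11*, since the *Golgb1* level of the replicate 3 IP library (132) lay above that of the replicate 1 total library (130).

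The transcripts whose log2 IP/total over the 6 tagged clones was most like that of *Golgb1* were *Aldh18a1*, an enzyme of proline synthesis, *Acly*, which makes cytosolic acetyl-CoA, *Ogdhl*, a relative of the 2-oxoglutarate dehydrogenase subunit, *Birc6*, a giant ubiquitin-conjugating enzyme, and *Tfrc*, the transferrin receptor. Pearson's r with *Golgb1* was 0.991 for the first 3, 0.990 for *Birc6* and 0.987 for *Tfrc*, over 6 clones that form 2 lines, so a high r mainly reflects a difference between the lines with little spread within them. Within the group, *Trip11* came closest (r = 0.912, rank 161 of the tested transcripts), followed by *Gcc2* (0.898), *Golga4* (0.848) and *Gcc1* (0.819). *Uso1* (-0.929) and *Golga5* (-0.888) ran opposite to it, although the ratios of *Uso1* spanned less than 0.08.

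Other proteins of the same trafficking steps were read from lists chosen by function, with calls of IP against total from the fits without the clone block. Of 13 other golgins and Golgi matrix proteins, all tested, 0 were called in either line or between the lines, and their median log2 IP/total was -0.02 in *Rps27-FLAG* and 0.02 in *Rps27l-FLAG*. Their CDSs were shorter, with a median of 1578 nt. The longest of them named here are *Cux1*, whose locus encodes both a transcription factor and a golgin (4281 nt, -0.16 and 0.02), and *Tmf1*, a golgin that binds Rab6 (3276 nt, -0.34 and -0.14). The 8 members of the COG complex, a tether for vesicles that move within the Golgi, had 0 called and medians of -0.09 and -0.14. The 4 tested members of the GARP and EARP tethers also had 0 called, with medians of -0.18 and -0.15, and so did the 10 Golgi SNAREs, the proteins that fuse vesicles after tethering, with medians of 0.16 and 0.04.

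Of 14 TRAPP subunits, which tether vesicles and activate Rab GTPases, *Trappc10* and *Trappc11* were called lower in IP RPFs of *Rps27-FLAG* and 0 in *Rps27l-FLAG*. Of 19 tested small GTPases and exchange factors at the Golgi, *Gbf1*, *Arfgef1* and *Ric1*, all of them parts of exchange factors, were called lower in *Rps27-FLAG*, and *Gbf1* also in *Rps27l-FLAG*. Among 8 tested subunits of COPI, the coat of the vesicles that golgins capture within the Golgi, *Copa*, *Copg1* and *Copg2* were called lower in *Rps27-FLAG* and the first 2 of them in *Rps27l-FLAG*. Of 11 COPII proteins 0 were called. Between the lines 0 genes of these 8 lists were called. In the 5 lists without a call (46 genes), edgeR gave an unadjusted p under 0.05 to 10 genes in *Rps27-FLAG*, 5 in *Rps27l-FLAG* and 4 between the lines, and neither DESeq2 nor voom called any. With the clone as a block these lists did hold calls. In *Rps27-FLAG* the other golgins had 3 higher and 2 lower, COG 3 lower, and GARP and EARP 3 lower. SNAREs had 1 higher, and COPII 3 higher and 4 lower. In *Rps27l-FLAG* the calls were 1 higher and 1 lower, 3 lower, 2 lower, 0, and 1 higher and 2 lower in that order. Over all tested transcripts the block called 22.9% lower and 18.3% higher in *Rps27-FLAG* and 19.0% lower in *Rps27l-FLAG*. In *Rps27l-FLAG* it called 3128 of the 10085 transcripts in either direction, 1919 of them lower and the rest higher.

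A list of 21 genes of long coiled-coil proteins, chosen as acting outside the Golgi although *Akap9* is also found there, had a median CDS of 5469 nt. Of these, 10 were called lower in IP RPFs of *Rps27-FLAG* and 4 in *Rps27l-FLAG*, and 0 were called higher. The median log2 IP/total was -0.45 and -0.16, lower in both lines than that of the golgins (-0.24 and -0.08). *Cenpe*, the kinetochore motor, was at -1.29 and -1.14, *Akap9*, a scaffold of the centrosome and Golgi, at -1.03 and -0.74, and *Myh9*, a non-muscle myosin heavy chain, at -0.90 and -0.67. Between the lines 5 were called, all higher in *Rps27l-FLAG*: the kinetochore protein *Cenpf* (0.36, standard error 0.0434), the nuclear pore protein *Tpr* (0.32, standard error 0.0396), *Akap9* (0.30, standard error 0.0628), and the centrosomal proteins *Cdk5rap2* (0.30, standard error 0.0678) and *Pcnt* (0.29, standard error 0.0484). The median of the list was 0.22. The difference for *Golgb1* (0.45) was the 155th highest of all tested transcripts. As *Golgb1* was picked on this contrast, it is not ranked against these 5. The list was put together with earlier results of these data known, and no test of it against the golgins was made.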

How the data were processed

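RPFs of 15 mESC libraries were analysed. Per the labels and the study's methods, the authors trimmed reads with cutadapt 2.4, split libraries by barcode, removed duplicates by molecular identifier with UMI-tools 1.0.1, discarded rRNA, tRNA and snRNA reads, aligned the rest with Bowtie2 2.3.4.3 to GRCm38 (mm10) transcripts, kept unique alignments, and counted the A sites that fell in each CDS, leaving out 15 codons at its start and 5 at its end. The deposited values are these raw counts per transcript, for 21727 transcripts with no gene names. All 15 columns were used and 0 left out. GENCODE M21 gave symbols, CDS lengths and positions, and in it 14 transcripts had no entry and 3 tested ones no CDS.

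The 13 mitochondrially encoded transcripts were left out, those with over 2 CPM in at least 14 libraries were kept (10085, holding at least 98.7% of a library's counts), and TMM factors were computed separately for IP and total RPFs. Counts were tested in R 4.3.3 with edgeR 4.0.16 (quasi-likelihood, Benjamini-Hochberg, adjusted p under 0.05) in fits by line, by fraction within a line, and by line, clone and fraction together, the last with a limit of 0.25 on the log2 fold change. *Tmod3*, which the study set aside as a likely artifact of the pull-down, stayed among the tested transcripts. Ratios of single clones had 0.5 counts added, and counts per kb used the CDS without the stop codon and the 20 codons not counted. Alternatives were voom and limma 3.58.1, DESeq2 1.42.0, DESeq2's size factors, TMM over all libraries, no low-count filter, the replicate as a block, a CDS length trend removed by loess (span 0.5), and each clone left out. Each tagged replicate gave both its libraries from 1 clone, and their residuals correlated with r of 0.468 to 0.790 in all 6 clones. Those of total libraries with the same number, which marks a sequencing batch, had r of -0.164 to 0.713. Replicates are separate clones, and p-values measure the spread between them.

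On counts simulated for 10085 transcripts, 200 were changed by 1 on the log2 scale. The test of *Rps27l-FLAG* against WT total RPFs found 86.5% of them and made 9 false calls, and that of IP against total in *Rps27-FLAG* found 78.0% and made 18. When 200 were changed by 0.5 between the IP effects, 60.5% were found and 4 calls were false. The simulated libraries were drawn independently, without variation shared within a clone or a batch. Simulated calls between the IP effects used the adjusted p alone, without the limit on the log2 fold change. The simulated percentages and false calls therefore do not describe how the tests performed on the real libraries. Plots were drawn with matplotlib 3.10.9 in Python 3.11.15 from tables made with pandas 2.3.3. The members and lists were chosen with earlier results of these data known. The named genes are all members, list genes called in a comparison or given as examples, and the 5 transcripts most like *Golgb1*. *Cux1* and *Tmf1* were named as the long members of their list after their values were seen. Amino acid sequences were not analysed here.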

Additional observations from a re-analysis of the deposited data

Results flagged for a closer look

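*Golgb1* was marked because its IP effect differed between the tagged lines by the interaction term of the edgeR fit, with a log2 IP/total of *Rps27l-FLAG* minus *Rps27-FLAG* of 0.446. The 3 *Rps27l-FLAG* clones (-0.66, -0.58 and -0.51) lay above the 3 *Rps27-FLAG* clones (-1.09, -1.03 and -0.95). *Golgb1* had been picked on this contrast. The *Golgb1* level of replicate 1 was the lowest of the 3 libraries in each of the 5 groups, and the part of the sequencing batch in the levels was not tested.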

How the results depend on the processing

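The count of members called between total RPFs stayed at 0 in the 3 comparisons of lines under all alternatives run, the replicate block included. For IP against total RPFs of *Rps27-FLAG*, 3 members were called under voom and limma, DESeq2, both other normalizations and no low-count filter, 5 with the replicate block, 6 with the replicate block and the CDS length trend removed, and 0 to 4 with a clone left out. For *Rps27l-FLAG* the count of 1 became 2 with DESeq2 (*Golgb1* added), 3 with the replicate block and 6 with the length trend removed as well, and 0 to 1 with a clone left out. For the difference between the lines, where the clone is part of the model, the count of 1 became 0 with no replicate block and 2 with a replicate block for the IP effect, and was 1 to 2 with a clone left out. DESeq2's filter on mean counts left 9 of the 10 members, *Golgb1* among them, without an adjusted p there, so no count is given. Over all tested transcripts, the 572 called in *Rps27-FLAG* became 4154 with the replicate block, 3163 with the length trend removed as well, and 0 to 1817 with a clone left out. The 313 in *Rps27l-FLAG* became 3128, 2291 and 0 to 319. The 58 called between the lines became 0 with no replicate block, 29 with the length trend removed and 11 with DESeq2, and were 45 to 61 with a clone left out. Of 790 log2 fold changes of members under alternatives, 769 moved by less than the spread between clones and 21 by more. Of the values called in the original fits, 0 changed sign. Some values not called there did change sign. With the length trend removed, *Golga3* in *Rps27-FLAG* and *Gcc2* and *Uso1* in *Rps27l-FLAG* went from below 0 to called higher. Of the 21, 5 were values of *Uso1* under other normalizations or tools and the other 16 came with the length trend removed. With 3 clones a group and 27 to 98 counts, *Golga1* and *Gcc1* were limited by depth. Over all tested transcripts, replicate libraries of a group differed by more than counting error (chi-square per degree of freedom 1.78 to 10.3). This was not computed for single members.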
